A study of Homo sapiens with 12 samples.

Results

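CXCL2, which encodes a chemokine, and IER2, which encodes an immediate early nuclear protein, were described in HEK293 cells after transfection of a mimic of the microRNA miR-1825. These 2 genes were chosen by their differences between mimic and control in earlier results of these same arrays, out of 14884 named genes. The mimic-control values below are therefore a description of both genes and carry no test. Each gene has 1 row on the array, which is also its row of highest mean over all 12 arrays: transcript cluster 16976844 for CXCL2 and transcript cluster 16858830 for IER2, a transcript cluster being the array's unit that gathers the probes of a gene. HEK293 is an established human line derived from embryonic kidney cells and transformed with adenovirus DNA. The control group of 6 arrays came from HEK293 cells given the AllStars Negative Control siRNA, and the mimic-1825 group of 6 arrays from HEK293 cells given Syn-hsa-miR-1825. The transfection reagent, HiPerfect, the RNA concentration of 5 nM and RNA extraction at 24 h were the same in both groups, so a response that both transfections set off would not appear in the comparison. The labels do not say whether the replicates were separate cultures. A p-value here refers to the differences among these 12 arrays alone, which may be technical.

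Immediate early genes are transcribed within minutes of a stimulus without new protein synthesis, and their mRNAs are usually short-lived. IER2 is one of them, and growth factors and serum switch it on through the MAP kinase pathway. CXCL2 is a ligand of the receptor CXCR2 and attracts neutrophils. Its transcription is driven mainly by NF-kB after signals such as interleukin-1 and TNF, and its mRNA carries AU-rich elements that mark it for decay. No such stimulus is named in the labels. The levels here are those measured after transfection, and whether any stimulus was present was not tested.

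The transfected microRNA and the sequence just before the start of each gene are shown because a mimic and inducing factors can act through such letters. Whether they did so here was not tested. The mature microRNA is given as RefSeq lists it (GRCh38.p14, chr20:32237830-32237847, plus strand), with the seed, bases 2 to 8, in capitals. The mRNAs of CXCL2 and IER2 were not searched for matches to this seed. No other of the 2370 mature human microRNA names in that table had the same seed. The promoter lines give the 250 bases before the start in GRCh38.p14, for CXCL2 at chr4:74099196-74099445 on the minus strand and for IER2 at chr19:13150161-13150410 on the plus strand. Capitals mark matches to the NF-kB motif and to 4 short words. ATAAAA resembles a TATA box and was searched on the gene's strand only. The cAMP response element begins with the letters TGACG, and GC boxes, which bind factors such as SP1, hold the letters GGGCGG. The core bound by ETS factors was searched as CCGGAA. Every motif other than ATAAAA was searched on both strands, and a match on the opposite strand is shown as its reverse complement in the strand printed.
hsa-miR-1825: uCCAGUGCccuccucucc
CXCL2: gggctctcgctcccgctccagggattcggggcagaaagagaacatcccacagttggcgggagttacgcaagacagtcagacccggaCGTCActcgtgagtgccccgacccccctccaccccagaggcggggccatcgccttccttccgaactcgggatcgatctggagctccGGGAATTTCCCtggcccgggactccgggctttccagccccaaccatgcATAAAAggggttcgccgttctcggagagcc
IER2: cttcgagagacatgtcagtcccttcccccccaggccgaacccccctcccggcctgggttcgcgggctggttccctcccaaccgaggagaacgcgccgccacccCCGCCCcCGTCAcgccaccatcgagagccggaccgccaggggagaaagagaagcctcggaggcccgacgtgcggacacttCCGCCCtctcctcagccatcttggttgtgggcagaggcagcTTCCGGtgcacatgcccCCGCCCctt

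The sequences before the starts of CXCL2 and IER2 had different motif matches. That of CXCL2 held an NF-kB match from 78 to 69 bases before the start, which overlapped a second match on the opposite strand, and an ATAAAA run from 30 to 25 bases before the start. An NF-kB match was found in 9.96% of 35116 promoter windows of the same length, and ATAAAA in 8.76%. Among the 14 CXC ligand genes with a window, 7 held an NF-kB match: CXCL1, CXCL2, CXCL3, CXCL5, CXCL6, CXCL10 and CXCL11. The IER2 sequence held no NF-kB or ATAAAA match but 3 GC boxes (42.6% of windows held at least 1) and an ETS core from 26 to 21 bases before the start (14.5% of windows). Both sequences had 1 match to TGACG, a word found in 21.2% of windows. Neither held the full element TGACGTCA (1.65%), an AP-1 match TGANTCA (6.57%) or a CArG box, the element of serum response factor (1.16%). These matches describe the letters only. Binding of factors was not measured.

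CXCL2 was higher on every mimic array than on any control array. Its log2 value ran from 5.77 to 6.16 in the controls, with a median of 5.97, and from 6.22 to 6.58 after the mimic, with a median of 6.29. The groups did not overlap, and the gap between the highest control, replicate 5, and the lowest mimic array, replicate 2, was narrow. The mean was 5.95 ± 0.13 in the control group and 6.35 ± 0.13 in the mimic group (SD, n = 6 each), a log2 difference of 0.40 (SE 0.08) or 1.32-fold. Mimic replicates 6 and 1, at 6.58 and 6.43, stood highest, and the other 4 mimic arrays lay between 6.22 and 6.31. The spread within the groups was alike, with SDs in a ratio of 1.01. Without overlap, 1.34% of the named genes were higher after the mimic and 0.403% were lower (200 and 60 genes), a split that was 128 and 104 after quantile normalization and 170 and 29 with arrays centred on their medians. CXCL2 kept the gap between its groups under both scalings. Since this contrast chose the gene, nothing is read from that share.

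IER2 was lower on average after the mimic, and its groups overlapped. Its log2 value ran from 6.89 to 7.15 in the controls, with a median of 6.94, and from 6.51 to 7.11 after the mimic, with a median of 6.79. Of the 6 mimic arrays 5 lay below the control mean. Replicate 3, at 7.11, lay above it and above all controls but replicate 1. Mimic replicates 6 and 4, at 6.51 and 6.58, were the lowest of the 12 arrays. The mean was 6.98 ± 0.11 in the control group and 6.78 ± 0.22 in the mimic group (SD, n = 6 each), a log2 difference of -0.21 (SE 0.09) or 0.867-fold. The SD of the mimic arrays was 1.98 times that of the controls. The difference in means was smaller than the SD among the mimic arrays.

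**Figure D1:**
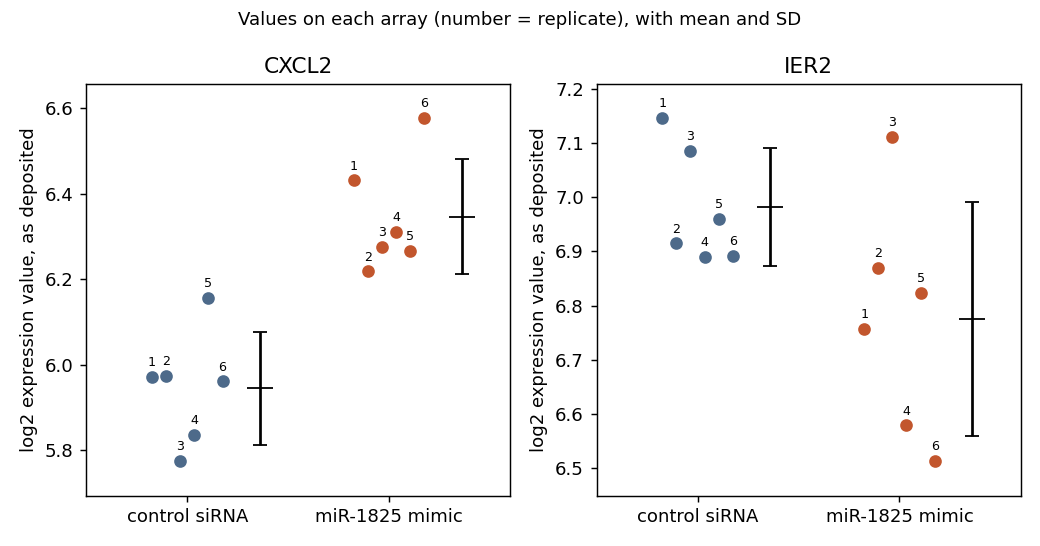
Log2 expression values of CXCL2 and IER2 (vertical axes, as deposited) on each array of the control and mimic groups; each point is 1 array, numbered by replicate, and the bar beside each group gives its mean and SD. CXCL2 lay between 5.77 and 6.16 in controls and between 6.22 and 6.58 after the mimic, whereas the IER2 values of the groups overlapped.

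Against all named genes, CXCL2 ranked closer to the top of the differences than IER2 did to the bottom. Ranked by log2 difference, CXCL2 was the number 12 of higher genes among 10698 named genes whose mean reached the median of all cluster means, and IER2 was number 207 of lower genes. Over all 14884 named genes the ranks were 17 and 366. None of the named genes passed an adjusted p of 0.05 in the limma test over the whole table (0 of 14884, 0.0%). Of 53617 clusters 6 did (0.0112%), none of them a row used here for a named gene. This contrast chose CXCL2 and IER2, so no verdict on these 2 genes is read from it. Leaving out control replicate 1, 2 or 3, or mimic replicate 1, 2, 4, 5 or 6, took that count of 6 to 0, and it was 2 without control replicate 4 or mimic replicate 3. A test of only the brightest 25% of clusters called 242 of 13405, and one of clusters whose mean reached the median called 13 of 26809. Limma's robust prior with a trend called 39 of 53617. Whether named genes are among these calls is not given here. At an unadjusted p under 0.05 in the same limma test 1618 named genes differed (10.9%), 995 of them higher (6.69%) and 623 lower (4.19%). After quantile normalization these were 800 higher and 784 lower, and with arrays centred on their medians 1158 higher and 404 lower. The median log2 difference over the named genes was 0.0002 as deposited. The mean of the CXCL2 row stood at the 73.6 percentile of all cluster means and that of IER2 at the 80.0 percentile. Signals of different probes cannot be compared as amounts of mRNA, and the percentile says only where a row lies on the scale of the array.

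**Figure D2:**
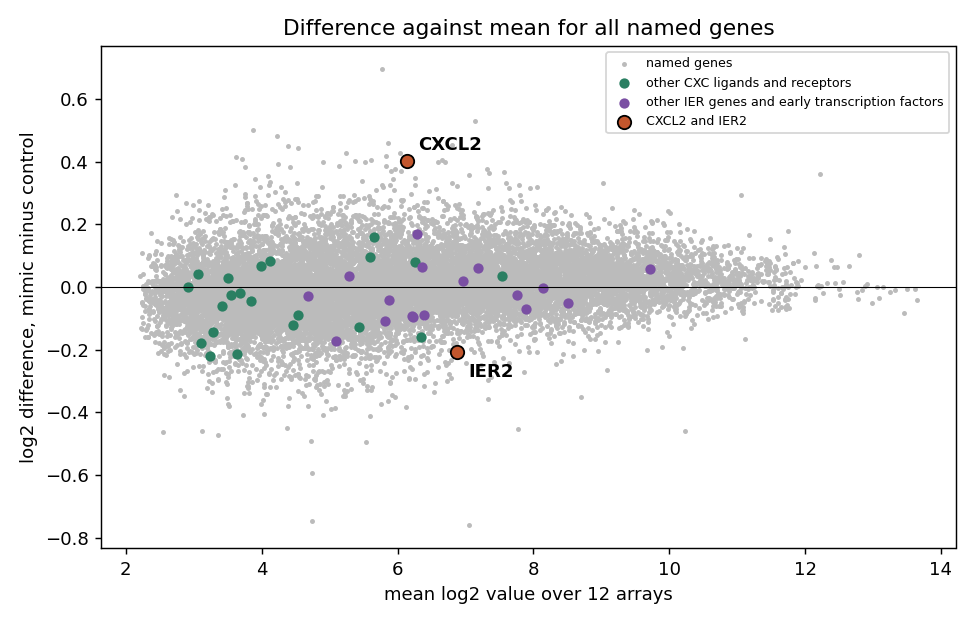
Log2 difference, mimic minus control (vertical axis), against the mean log2 value over the 12 arrays (horizontal axis) for every named gene, with CXCL2, IER2, the other CXC ligands and receptors and the other early genes coloured. CXCL2, at 0.40, lies near the upper edge of the cloud and IER2, at -0.21, within its lower part, and no other coloured gene reaches the CXCL2 difference.

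The other CXC chemokines differed less than CXCL2, which was chosen by its difference, so nothing is read from that. Of the 16 CXC ligand genes listed, 15 have a row, and CXCL1, a close relative of CXCL2, has none under that name. Among the 14 other ligands, the mean after the mimic was higher for 6 and lower for 8, and log2 differences ran from -0.22 to 0.16 with a median of -0.01. In the limma test 0 of the 14 passed at the adjusted threshold (0 of all named genes did). An unadjusted p under 0.05 was found for 2 (14.3%, near the 10.9% of all named genes), both lower. These were PPBP, a platelet chemokine, and CXCL8, the interleukin-8 gene. CXCL8 ran from 3.23 to 3.49 in controls (median 3.34) and from 3.11 to 3.29 after the mimic (median 3.20, log2 difference -0.14, SE 0.05, limma adjusted p = 0.350). PPBP had a log2 difference of -0.22 (SE 0.10, limma adjusted p = 0.458). Both rows lay far below every array median (4.44 to 4.51), where background is not known, so no fold is given and the log2 differences may not reflect mRNA. CXCL3, which shares the CXCR2 receptor and most of its sequence with CXCL2, had means of 3.69 ± 0.23 (control) and 3.67 ± 0.16 (mimic), also below the array medians. Its log2 difference of -0.02 turned positive when control replicate 4, mimic replicate 1 or mimic replicate 2 was left out. Probes of CXCL1, CXCL2 and CXCL3 may each take up transcripts of the others, which was not tested.

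The ligands that shared the NF-kB match with CXCL2 were also close to no difference. CXCL3, CXCL5, CXCL6, CXCL10 and CXCL11 had log2 differences of -0.02, 0.07, 0.03, -0.001 and 0.08. All 5 rows lay below the array medians. The largest positive difference among the other ligands belonged to CXCL14, a chemokine of epithelia, at 0.16 (SE 0.09, limma adjusted p = 0.548), and all 6 of its mimic arrays lay above the control mean. PF4, a platelet chemokine, had -0.16, and CXCL16, the ligand of CXCR6, had 0.03.

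Receptors of CXC chemokines were measured beside their ligands. CXCR2, the receptor of CXCL2, had means of 3.87 ± 0.14 (control) and 3.83 ± 0.10 (mimic), both below the array medians. Its log2 difference of -0.04 was 0.01 without control replicate 2, which stood apart from the other controls at 4.14. CXCR1, a receptor of CXCL8, had a log2 difference of -0.21 (SE 0.11, limma adjusted p = 0.499), and its row also lay below the medians. CXCR4, the receptor of CXCL12, stood at the 74.7 percentile of cluster means and had a log2 difference of 0.08. Of 7 receptor genes with a row, 2 had higher and 5 lower means, and 0 passed the limma test at the adjusted threshold or at an unadjusted p under 0.05, which 10.9% of all named genes had. With so few genes that is no result about the receptors.

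**Figure D3:**
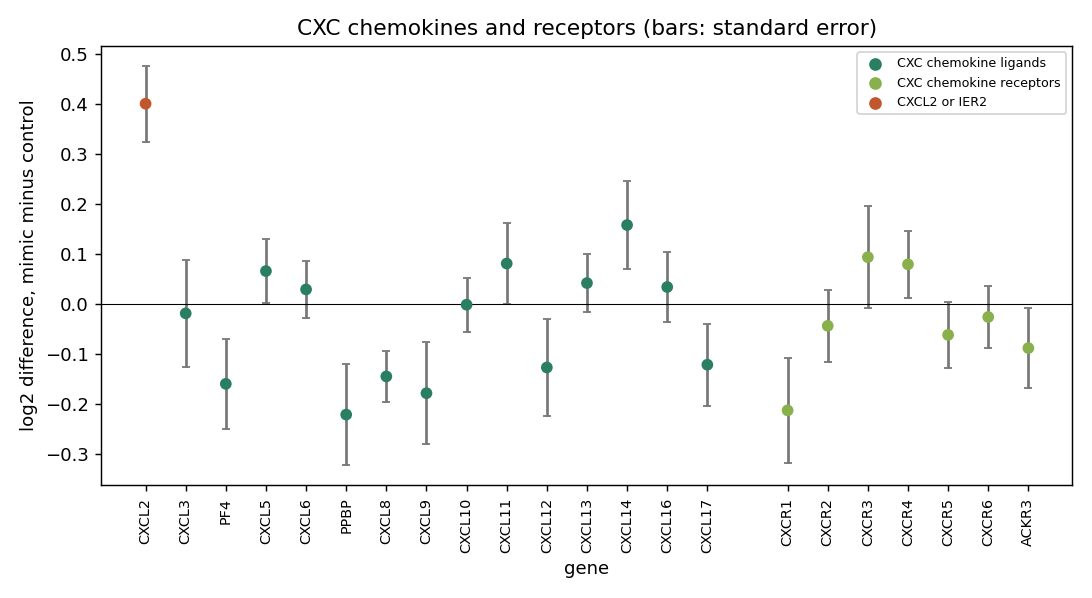
Log2 differences, mimic minus control (vertical axis), for the CXC chemokine ligands and receptors with a row (horizontal axis), with standard errors from limma as bars and 6 arrays per group. CXCL2 lies at 0.40, while the other 14 ligands lie between -0.22 and 0.16.

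CXCL2 lies in a cluster of chemokine genes on chromosome 4, which allowed its neighbours to be examined, a step added after the members' values were known. Of the 8 protein-coding genes nearest on each side in RefSeq, 13 of 16 have a row. Their log2 differences ran from -0.22 to 0.19 with a median of 0.0002, 7 means being higher and 6 lower. The limma test called 0 of the 13 at the adjusted threshold. An unadjusted p under 0.05 was found for 4 of the 13, where 10.9% of all named genes had one. Of those 4, CXCL8 and PPBP, already counted among the ligands, were lower and 2 were higher. MTHFD2L, the gene next to CXCL2, which encodes a mitochondrial folate enzyme, had a log2 difference of 0.19 (SE 0.08, limma adjusted p = 0.449), and control replicate 3 was its highest control. THAP6 had 0.15 (SE 0.07, limma adjusted p = 0.460). Around IER2 on chromosome 19, 9 of 16 neighbours have a row, with log2 differences from -0.09 to 0.10 and a median of -0.05. None of those 9 passed in limma, at the adjusted threshold or at an unadjusted p under 0.05. With so few genes neither count is a result about the neighbours of CXCL2 or IER2. STX10, a syntaxin gene next to IER2, had a log2 difference of -0.06 (limma adjusted p = 0.682).

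**Figure D4:**
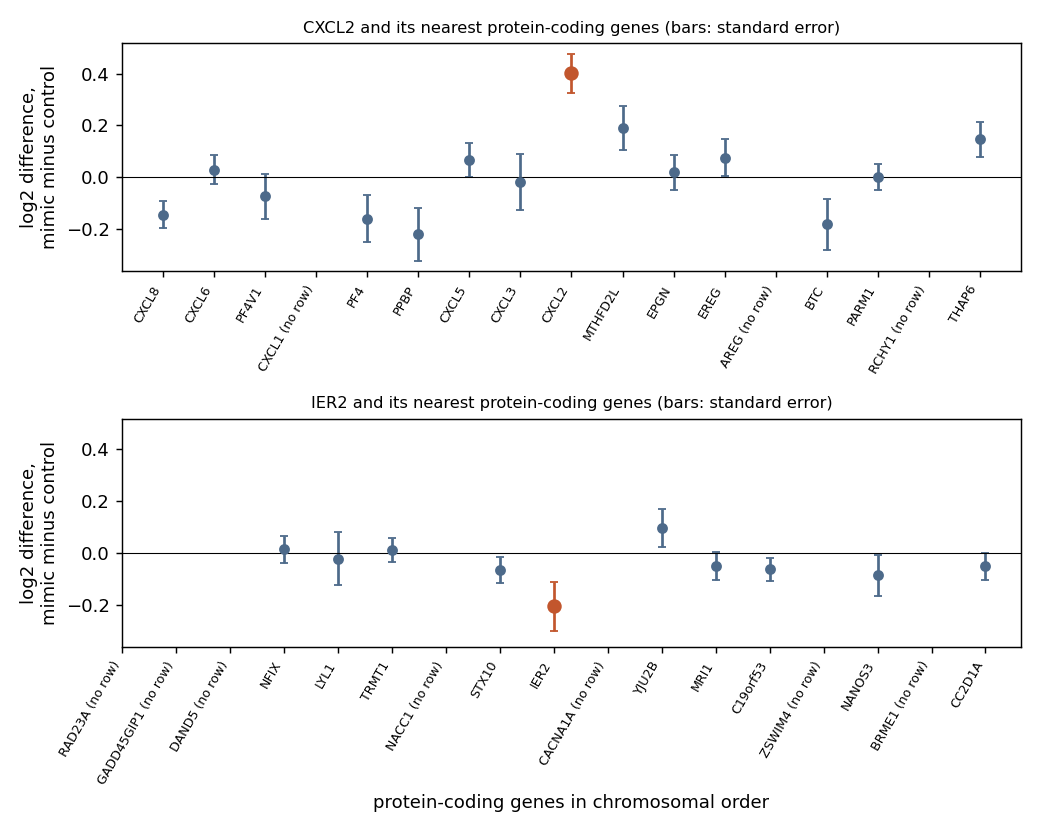
Log2 differences, mimic minus control (vertical axes), of CXCL2, IER2 and the 8 protein-coding genes on each side of them in chromosomal order (horizontal axes), with standard errors from limma as bars. CXCL2 at 0.40 lies above its neighbours, of which MTHFD2L at 0.19 is nearest to it in value. IER2 at -0.21 lies below its neighbours. Both genes were chosen by their differences, so nothing is read from that.

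The other IER genes differed less than IER2, which was likewise chosen by its difference, so nothing is read from that. IER3, an early gene that protects cells from apoptosis, had means of 7.16 ± 0.09 (control) and 7.22 ± 0.08 (mimic), a log2 difference of 0.06 (SE 0.06, limma adjusted p = 0.738). Its mimic replicate 3, at 7.39, stood above the other 5 mimic arrays (7.16 to 7.20). IER3 lies in the HLA region and has 11 rows on the array, and the row of highest mean was used. IER5, a nuclear protein gene of the same family, had means of 8.15 ± 0.06 in both groups and a log2 difference of -0.004 (limma adjusted p = 0.986), whose sign changed with the arrays centred on their medians and without single arrays. IER5L has no row under that name.

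Early transcription factors had more lower than higher means, and none passed. Of 15 with a row, 5 had a higher mean after the mimic and 10 a lower one, where all named genes split into 7457 and 7427. The median log2 difference was -0.04 against 0.0002 over all named genes. With limma 0 of the 15 passed at the adjusted threshold and 0 had an unadjusted p under 0.05, against 10.9% of all named genes. With so few genes neither count is a result about these factors. JUNB, a subunit of AP-1, had means of 6.96 ± 0.04 (control) and 6.98 ± 0.13 (mimic), and its log2 difference of 0.02 was -0.01 after quantile normalization. EGR1, a zinc finger factor switched on with IER2 by growth factors, had a log2 difference of 0.07 (limma adjusted p = 0.686) and FOS, the partner of JUN in AP-1, of 0.04 (limma adjusted p = 0.913). The mean of both rows of EGR1 gave -0.01 and that of both rows of FOS -0.05. ATF3, a stress-induced factor, had -0.10 (limma adjusted p = 0.578), and KLF4, a Kruppel-like factor, had -0.11 (SE 0.06, limma adjusted p = 0.526). In both, none of the 6 mimic arrays lay above the control mean. FOSL1, another AP-1 subunit, had the largest positive difference, 0.17 (SE 0.10, limma adjusted p = 0.585), with control replicate 4 low at 5.73. EGR3 had a difference of -0.17, the lowest of the list.

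Genes that damp or carry out the early response were also examined. Of 13 with a row, 9 had higher and 4 lower means, and 1 (7.69%, near the 10.9% of all named genes) had an unadjusted p under 0.05 with limma. It was SPRY2, an inhibitor of receptor tyrosine kinase signalling, with means of 8.10 ± 0.06 and 8.20 ± 0.05 (n = 6 each; log2 difference 0.10, limma adjusted p = 0.458). DUSP4, a MAP kinase phosphatase gene, had 0.09 (limma adjusted p = 0.566), and MCL1, a survival gene with a short-lived mRNA, had 0.06 (limma adjusted p = 0.624).

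**Figure D5:**
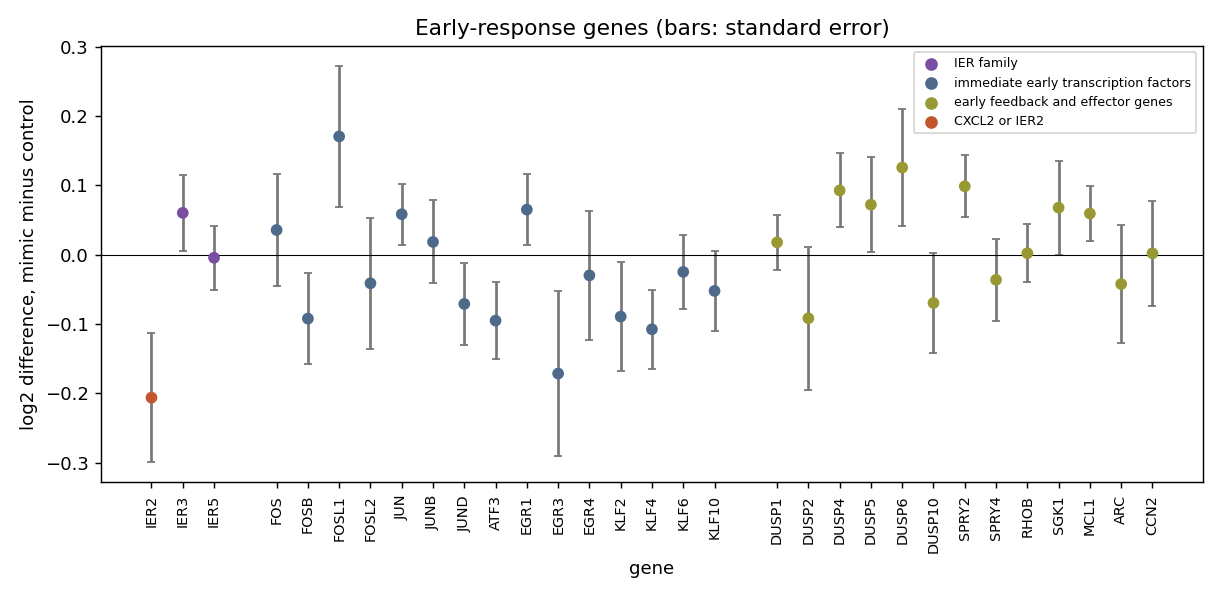
Log2 differences, mimic minus control (vertical axis), for the IER genes, the immediate early transcription factors and the early feedback and effector genes with a row (horizontal axis), with standard errors from limma as bars. IER2 at -0.21 is the lowest of the genes shown, and FOSL1 at 0.17 is the highest.

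The signalling that leads to either gene was listed in 5 groups. In the MAP kinase, SRF and CREB group 9 of 21 genes have a row, 5 higher and 4 lower, and 0 had an unadjusted p under 0.05, against 10.9% of all named genes, which is too few genes to read. SRF, the serum response factor, had means of 9.82 ± 0.04 and 9.80 ± 0.04 (n = 6 each; limma adjusted p = 0.883). MRTFA, a coactivator of SRF, had a log2 difference of -0.10 and CREM, a cAMP-responsive factor gene, of -0.06. MAP2K2, which encodes the kinase MEK2, had 0.20 (SE 0.13, limma adjusted p = 0.604).

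Upstream of NF-kB, IL1RAP had the smallest p of the 89 listed genes other than CXCL2 and IER2. IL1RAP encodes the accessory chain of the interleukin-1 receptor. Its log2 value ran from 5.13 to 5.33 in controls, with a median of 5.25, and from 5.28 to 5.65 after the mimic, with a median of 5.57. The groups overlapped, and all 6 mimic arrays lay above the control mean. The mean was 5.23 ± 0.09 and 5.51 ± 0.16 (SD, n = 6 each). The log2 difference was 0.28 (SE 0.07, 1.21-fold), and it did not pass (limma adjusted p = 0.241). TAB2 and TAB3, adaptors of the kinase TAK1, each had 0.10 (limma adjusted p = 0.513 and 0.491). Of the 12 genes of interleukin-1, TNF and Toll-like receptor signalling with a row, 7 had higher and 5 lower means.

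Subunits of NF-kB differed little, and most of the 7 other targets with a row had lower means. Among 6 subunits and inhibitors with a row, 3 had higher and 3 lower means and 0 had an unadjusted p under 0.05, against 10.9% of all named genes. NFKB1, the p105 and p50 subunit gene, had a log2 difference of -0.07 (limma adjusted p = 0.597), NFKB2 of -0.09 and RELB of 0.05. NFKBIA and TNFAIP3, inhibitors that NF-kB itself induces, have no row under those names. Of these 7 target genes, 6 had lower means, with a median log2 difference of -0.14. Over all named genes 7457 means were higher and 7427 lower. TNF and LIF (2 of 7, 28.6%, against 10.9% of all named genes) had an unadjusted p under 0.05 with limma. With 7 genes neither count is a result about the targets. TNF had means of 4.31 ± 0.09 and 4.17 ± 0.11 (log2 difference -0.15, limma adjusted p = 0.420) and LIF, a cytokine gene, of 4.45 ± 0.12 and 4.27 ± 0.16 (log2 difference -0.18, limma adjusted p = 0.435; n = 6 each). ICAM1, an adhesion molecule gene, had -0.15 (limma adjusted p = 0.544). The TNF, LIF and ICAM1 rows lay near or below the array medians, and those of CCL2 and CCL20 lay below them. TNF has 8 rows on the array, and the row of highest mean was used.

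Proteins that bind AU-rich mRNAs were poorly covered, with 4 of 11 genes on named rows and neither ZFP36 nor ELAVL1 among them. TIA1, which holds back translation of such mRNAs, had a log2 difference of 0.13 (SE 0.06, limma adjusted p = 0.460). KHSRP, which promotes their decay, had -0.05 (limma adjusted p = 0.623) and PARN, a deadenylase, 0.07 (limma adjusted p = 0.644). Over all lists together 91 of 143 genes have a row, and of the 89 other than CXCL2 and IER2 42 had higher and 47 lower means. Limma called 0 of the 89 at the adjusted threshold. At an unadjusted p under 0.05 it found 7 (7.87%, against 10.9% of all named genes), 3 higher and 4 lower, which became 1 and 5 after quantile normalization and 3 and 3 with centred arrays. The 7 were CXCL8, IL1RAP, LIF, PPBP, SPRY2, TIA1 and TNF. The count was 4 without control replicate 2, control replicate 6 or mimic replicate 1, and 3 without mimic replicate 2. Groups of 0 of the 89 genes were without overlap, where 1.34% of all named genes were so in the higher and 0.403% in the lower direction, so this count lies near the share over all named genes.

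CXCL2 and IER2 were also compared from array to array within each group, which the contrast that chose them did not use. In the mimic group, replicate 6 was highest for CXCL2 and lowest for IER2. Across the 6 mimic arrays Pearson's r was -0.657 (exact permutation p = 0.167, adjusted 0.956) and Spearman's rho -0.771 (exact permutation p = 0.103, adjusted 0.956). Without the 2 arrays farthest from the CXCL2 median r was -0.417. Across the 6 controls r was -0.155 (exact permutation p = 0.753, adjusted 0.956) and rho 0.143 (exact permutation p = 0.803, adjusted 0.956), and r was 0.408 without the 2 farthest arrays. Both tests were two-sided, and 720 orders of 6 arrays allow a p of 0.00139 at the smallest. A further 7 relations, of CXCL2 with CXCL3 and CXCL8 and of IER2 with FOS, JUNB, EGR1, ATF3 and IER3, were tested in each group. The highest r was 0.743, between IER2 and IER3 in the mimic group (exact permutation p = 0.0861, adjusted 0.956; rho 0.600, exact permutation p = 0.242, adjusted 0.956). It was -0.262 without the 2 arrays farthest from the IER2 median, replicate 3 being high for both genes. Of 32 coefficients 0 had a permutation p under 0.05 before or after Benjamini-Hochberg adjustment.

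The genes whose array-to-array pattern was most like each member were sought among 10697 other named genes whose mean reached that median, after each group mean was taken off, by Pearson's r over the 12 arrays. For CXCL2 the 5 nearest were TMEM184C (r = 0.886), SPATA21 (0.880), MIR585 (0.863), TPTEP2 (0.834) and UNC13D (0.822). TMEM184C, a membrane protein gene, was also nearest when the values were taken as measured (r = 0.942), with means of 9.86 in controls and 9.98 after the mimic. For IER2 they were CNEP1R1 (0.933), CDK5RAP3 (0.933), GAS1 (0.899), QPCTL (0.890) and FAXC (0.881). As measured, these 5 had r from 0.605 to 0.850 with IER2. These are the highest of many values over the same 12 arrays and are a description. The highest r of other genes was not computed.

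Markers were used to check the cells. Of 6 HEK293 markers 4 have a row, and NEFL and NEFM have none under those names. KRT18, KRT8 and VIM, genes of the cytoskeleton that HEK293 cells make, and PAX2, a kidney factor gene, stood between the 67.4 and 95.5 percentiles of all cluster means. Their mean log2 level ran from 7.36 to 7.54 in controls and from 7.22 to 7.45 after the mimic. Of 9 leukocyte markers, 4 have a row. LYZ and CD14 stood at the 15.9 and 37.6 percentiles, CSF1R at 57.4, and CD68, a lysosomal protein gene also made outside leukocytes, at 74.8. Endothelial markers (3 of 4 with a row) stood between 27.4 and 43.3, and of 2 fibroblast markers with a row DCN stood at 6.47 and LUM at 68.7. PAX2, at 67.4, stood below LUM and CD68, so these percentiles do not fully separate the cell types. The mean log2 level of the leukocyte markers ran from 4.47 to 4.61 in controls and from 4.37 to 4.61 after the mimic, and that of the endothelial markers from 3.67 to 4.04 and from 3.70 to 3.93. These ranges overlapped between groups, as did those of the fibroblast markers (4.09 to 4.27 and 4.10 to 4.30).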

How the data were processed

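RNA from 12 samples of HEK293 cells was measured on Human Gene 2.0 ST arrays from Affymetrix. The deposited table gives log2 values per transcript cluster, which the authors made in Expression Console, a program of Affymetrix named in the submitters' processing notes. For its version, background correction, normalization and build, not given in the sources used here, no value can be stated. The log2 scale was read from the values (1.62 to 14.4). They were used as deposited. The platform annotation named 16098 of 53617 clusters, all matched to RefSeq (GRCh38.p14) gene identifiers, and the 37519 others are unnamed here. A gene's row of highest mean over all arrays was used. The lowest correlation between 2 arrays was 0.990 within groups and 0.988 between groups. The number of arrays limits the precision.

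Mimic was compared with control by limma 3.58.1 in R 4.3.3 (lmFit, eBayes, no block, all clusters, two-sided) with Benjamini-Hochberg adjustment over all clusters, and checked on data made with known differences. Each standard error of a difference comes from this fit. Relations used exact permutation (Python 3.11.15). Members and lists were chosen with earlier results of these data known. The rule for named genes took from each list the 3 genes of smallest p, 12 genes fixed by name (of which CXCL1 and NFKBIA have no row), and the 5 genes most alike to each member. EGR3, PF4, CXCL5, CXCL6, CXCL10, CXCL11, CXCL16 and the neighbours were named after their values were seen. Alternatives were quantile normalization, median centring, filters on low values, a trend and robust prior, the mean of a gene's rows, a replicate block and leaving out each array.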

Additional observations from a re-analysis of the deposited data

Results flagged for a closer look

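Each group of 6 arrays was searched for a single array whose distance from the nearest other exceeded Dixon's critical share of the group's range. Of 84 groups (42 genes, each in both treatment groups) 7 had such an array, where chance gives about 1 in 20 for genes picked without regard to their values. Some of the 42 were named after their values were seen, among them PF4, MTHFD2L and THAP6 below. The count can therefore not be read against that rate. Neither CXCL2 nor IER2 had one. IER3 had its highest value, 7.39, in mimic replicate 3 (others 7.16 to 7.20), the array in which IER2 was also highest of its group. FOSL1 was lowest in control replicate 4 at 5.73 (others 6.16 or above). CXCR2 was highest in control replicate 2 at 4.14 (others 3.77 to 3.88). PF4 stood apart in both groups, being highest in control replicate 6 at 6.80 (others 6.31 to 6.39) and in mimic replicate 1 at 6.53 (others 6.17 to 6.28). Among the neighbours of CXCL2, MTHFD2L was highest in control replicate 3 at 5.28 (others 4.82 to 4.97), and THAP6 had its highest value, 5.97, in mimic replicate 2 (others 5.65 to 5.73).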

How the results depend on the processing

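The log2 difference of CXCL2 ran from 0.35 without mimic replicate 6 to 0.44 without control replicate 5. That of IER2 ran from -0.27 without mimic replicate 3 to -0.15 without mimic replicate 6. Both kept their direction under every alternative that gave a value. The filters, the trend and robust prior, the mean of a gene's rows and the replicate block could not change these differences (0.4011 and -0.206). As the CXCL2 groups did not overlap, leaving out a single array could not reverse its sign. Both genes were chosen by this difference, so its stability is no support for it. CXCL2 has no value in the brightest 25% of clusters, because its mean lies below that limit. The count of 6 called clusters was 13 among clusters at or above the median, 242 in the brightest 25%, 39 with a trend and robust prior, 0 with the mean of a gene's rows, 0 with a replicate block, and 0 to 6 when single arrays were left out. The 7 other list genes at an unadjusted p under 0.05 became 4 among clusters at or above the median and 3 with a replicate block, and 3 to 10 without single arrays. Pairing by replicate number did not show in the deviations of the arrays. Those of same-numbered arrays correlated between -0.113 and 0.0841, and only 1 of 12 arrays, mimic replicate 6, correlated best with its own number. Whether same-numbered arrays shared a culture or batch was not tested. With a replicate block the SE was 0.0722 for IER2 (0.0934 without) and 0.0745 for CXCL2 (0.0757 without). Of 40 other genes with alternatives, 6 changed sign, none with a size over 0.07. The log2 difference of IER5 was 0.0107 with arrays centred on their medians and ran from -0.0212 to 0.0159 without single arrays. That of JUNB was -0.0069 after quantile normalization (without single arrays -0.0171 to 0.0518), of EGR1 -0.0104 and of FOS -0.0544 with the mean of a gene's rows. Without single arrays FOS ran from -0.0134 to 0.0788, CXCL3 from -0.0761 to 0.0655 and CXCR2 from -0.0698 to 0.0103. The r of CXCL2 with IER2 in controls was 0.00602 with centred arrays, 0.408 without the 2 farthest arrays, and -0.388 to 0.206 without single arrays. The cause of these changes was not tested. Rows near or below the array medians have an unknown background.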
